A study of Mus musculus with 15 samples.

Results

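The genes described here are ligands, receptors, Smads, antagonists and regulators of the TGF-β and BMP pathways, taken as a fixed list of 45 symbols that leaves out the Id genes. Probe sets of an Affymetrix array were matched to the symbols through the platform annotation, and each gene was read from its brightest probe set (by the mean of the 15 arrays). Of the 45 genes, 44 had a probe set, among 18193 genes in all, and Gdf15 was not analysed here. Of the 44, 12 passed the test in at least 1 of 11 comparisons and 32 in none, and 16 were dim, under 5 log2 units on every array. Array medians over all probe sets were 3.69 to 3.75 log2 units, so that folds of dim members are understated.

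TGF-β, activin and BMP ligands are secreted dimers that bind pairs of type I and type II receptor kinases on the cell surface. TGF-β and activin receptors phosphorylate Smad2 and Smad3 and BMP receptors phosphorylate Smad1 and Smad5, and both kinds join Smad4 and enter the nucleus, where Runx proteins are known partners of Smads. Inhibitory Smads, ubiquitin ligases, corepressors and secreted antagonists damp the signal, and in fibroblasts TGF-β is known as an inducer of matrix and contractile genes.

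The 15 arrays came from NIH3T3 cells, an immortalised mouse fibroblast line, transduced with the retroviral vector pBabe-puro. In 8 groups, the vector was empty (2 arrays without and 2 with 4-OHT, the active form of tamoxifen), or carried RUNX1-ER, human RUNX1 that 4-OHT switches on (2 arrays uninduced and 2 induced), mouse Runx1, Runx2 or Runx3 made constitutively (2 arrays each), or human RUNX1 made constitutively (1 array). All cultures grew to confluence for 7 days and had ethanol (0.2%) alone or with 4-OHT for 24 hours, at a concentration that the labels give as 0.1 mM. Which of the 2 the constitutive lines had, and whether a line was a clone or a pool, is not given in the sources used here. Going by its title, the series asked for a transcriptional programme of Runx proteins in adhesion and survival. The titles number the arrays as biological replicates without naming separate transductions, so that p-values here cover only the spread among the arrays, which may be technical. Values are log2 units of the authors' RMA normalization, a difference of 1 being 2-fold, and the threshold was an adjusted p of 0.05 in limma over all 18193 genes. A change in the number of cells and a change in RNA per cell cannot be told apart in such samples.

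All 10 fibroblast markers examined (Col1a1, Vim, Pdgfra and others) read above 5 log2 units on every array. Their levels were not fixed: 5 of the 10 passed in the Runx3 line against vector (2 higher and 3 lower, from −1.38 to 0.89), 2 in each of the Runx1 and Runx2 lines and 3 in induced RUNX1-ER cells against vector with 4-OHT. No endothelial or leukocyte marker did on any. Of 5 epithelial markers, 2 were above 5 log2 units on both Runx3 arrays and none on both vector arrays, and the mean over the 5 was 4.58 and 4.68 in the Runx3 line against 4.09 and 4.11 in vector cells. Of the 5, 1 passed in the Runx3 line, at 2.72, and 1 in the Runx2 line, at 0.97. The part of these markers in the results of the lines was not tested. Of the 14 arrays that had a replicate, 10 correlated best with it, and Runx2 replicate 2 was closest to an induced RUNX1-ER array.

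Sequences before listed starts are shown for the 3 members with the largest log2 difference in size in any of the 11 comparisons (Wwp2 1.84, Smad6 1.72 and Tgfbr2 1.16). Those of Fstl1 and Ltbp1, among the 4 members whose window holds a Runx consensus, are shown as well. The windows of Acvr2a and Smurf2, with the match on the other strand, are not shown. The printed sequences run 5′ to 3′ on the gene's strand over the 250 bases before a listed start (RefSeq, GRCm38.p6). They are in lower case, with capitals marking TGTGGT or TGCGGT on either strand. These letters were searched for as the Runx consensus and counted as 1 motif.
Wwp2, chr8:107436120-107436369, strand +: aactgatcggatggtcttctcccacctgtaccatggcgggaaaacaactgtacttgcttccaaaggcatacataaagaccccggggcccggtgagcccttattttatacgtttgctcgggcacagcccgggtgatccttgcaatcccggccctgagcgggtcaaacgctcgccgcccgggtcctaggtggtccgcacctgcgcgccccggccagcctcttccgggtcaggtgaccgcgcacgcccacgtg
Smad6, chr9:64022060-64022309, strand -: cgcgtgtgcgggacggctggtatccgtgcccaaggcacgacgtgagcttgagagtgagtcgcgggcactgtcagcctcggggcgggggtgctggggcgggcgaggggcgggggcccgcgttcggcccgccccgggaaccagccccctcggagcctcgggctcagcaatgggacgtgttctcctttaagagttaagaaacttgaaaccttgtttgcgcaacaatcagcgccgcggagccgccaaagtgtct
Tgfbr2, chr9:116175364-116175613, strand -: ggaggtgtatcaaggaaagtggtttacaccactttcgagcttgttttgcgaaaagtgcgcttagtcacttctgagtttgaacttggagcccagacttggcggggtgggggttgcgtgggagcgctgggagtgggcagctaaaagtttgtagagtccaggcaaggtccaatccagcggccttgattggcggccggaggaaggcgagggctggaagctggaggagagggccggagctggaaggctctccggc
Fstl1, chr16:37776805-37777054, strand +: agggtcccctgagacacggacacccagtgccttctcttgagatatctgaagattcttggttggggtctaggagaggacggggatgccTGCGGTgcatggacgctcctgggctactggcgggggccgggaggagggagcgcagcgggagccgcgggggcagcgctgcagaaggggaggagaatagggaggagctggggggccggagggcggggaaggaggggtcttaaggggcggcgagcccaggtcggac
Ltbp1, chr17:75178531-75178780, strand +: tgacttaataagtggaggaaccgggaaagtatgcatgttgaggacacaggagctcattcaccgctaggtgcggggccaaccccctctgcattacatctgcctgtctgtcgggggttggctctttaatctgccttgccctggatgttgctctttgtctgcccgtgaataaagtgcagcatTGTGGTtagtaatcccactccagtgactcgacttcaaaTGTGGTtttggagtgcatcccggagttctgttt
The windows of Wwp2, Smad6 and Tgfbr2 held no match, that of Fstl1 held 1 and this window of Ltbp1, one of 2 listed for the gene, held 2. It lies inside the Ltbp1 gene span (75005480-75392512), and the other window of Ltbp1 (75005279-75005528) held no match. The windows of Wwp2 and Smad6 reach into their gene spans, which begin at 107436334 and, on the minus strand, at 64022085. Of 31 members with a listed start, 4 had a match (Fstl1, Ltbp1, Acvr2a and Smurf2). By window, 4 of 41 windows of members (9.76%) and 6107 of all 32851 windows in the table (18.6%) held one. Of the 13 windows of members that passed the test somewhere, 1 did. These windows belong to 8 of the 12 such members, some with several windows, and Tgfb3, Tgfbr3, Skil and Nog had none. A match is a description of letters, not a binding site, and the absence of one says nothing about regions outside the window.

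Wwp2, which encodes a ubiquitin ligase that binds Smads, was higher wherever a Runx protein was expressed constitutively or induced. It read 6.62 and 6.21 log2 units on the vector arrays, 7.47 and 7.49 on the Runx1 arrays, 7.96 and 8.16 on the Runx2 arrays and 8.21 and 8.28 on the Runx3 arrays. The vector arrays lay below all 6 arrays of the lines. The rises against vector for Runx1, Runx2 and Runx3 were 2.09-fold, 3.12-fold and 3.54-fold (log2 differences 1.06, 1.64 and 1.83), each with an SE of 0.13 (adjusted p = 0.000716, 1.47e-05 and 1.53e-06). The lines differed among themselves, the Runx3 line being 0.76 log2 units above the Runx1 line (adjusted p = 0.00288). Runx2 exceeded Runx1 by 0.58 (adjusted p = 0.0472), a call lost without any 1 of the 4 arrays involved (adjusted p = 0.221 and 0.215 without Runx1 replicates 1 and 2, 0.0913 and 0.178 without Runx2 replicates 1 and 2).

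Induction of RUNX1-ER raised Wwp2 as well. The uninduced arrays read 6.72 and 6.79 and the induced ones 8.21 and 8.13, a rise of 1.41 log2 units (SE 0.13, adjusted p = 7.21e-05). The vector arrays with 4-OHT, at 6.20 and 6.46, lay near those without it (difference −0.09, adjusted p = 0.953). Set against the change with 4-OHT in vector cells, the induction was 1.50 (SE 0.18, adjusted p = 0.00180), and induced cells exceeded vector cells with 4-OHT 3.58-fold (adjusted p = 7.40e-06). The single array with human RUNX1 read 7.95, above all vector arrays.

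Wwp2 had 6 probe sets, which did not all move alike. The next brightest changed by 0.32, 0.58 and 0.85 in the Runx1, Runx2 and Runx3 lines and by 1.00 between induced RUNX1-ER and vector cells with 4-OHT, and it passed only in the last 2 of these (adjusted over all probe sets). Of the other 4, all with means below 5, the one with a mean of 4.01 rose by 0.76 in the Runx3 line and 2 changed by no more than 0.13 in size in these 4 comparisons. When all 6 were averaged, Wwp2 changed by 0.20 in the Runx1 line and missed the threshold (adjusted p = 0.397).

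**Figure D1:**
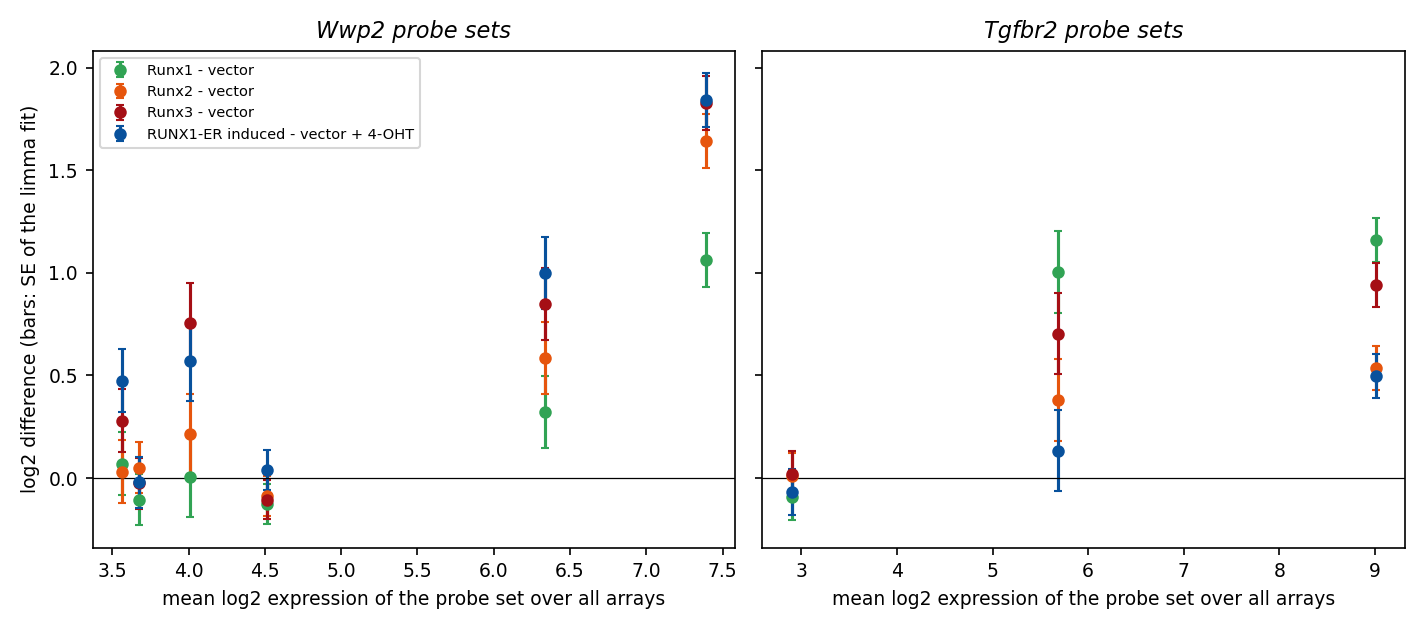
Each point is a probe set of Wwp2 (left, 6 probe sets) or Tgfbr2 (right, 3), at its mean log2 level over all arrays (horizontal) and its log2 difference in a comparison (vertical, bars are the SE of the limma fit), coloured by comparison. The differences are largest at the brightest probe set of Wwp2, up to 1.84, while the 2 brighter probe sets of Tgfbr2 gave 1.16 and 1.00 in the Runx1 line.

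Smad6 encodes an inhibitory Smad that blocks BMP receptors and is itself a target of BMP signals. Its values were 4.56 and 4.53 log2 units in uninduced RUNX1-ER cells and 6.12 and 6.28 after induction. Every other array of the series read at most 5.14. The rise was 3.14-fold (log2 1.65, SE 0.14, adjusted p = 4.66e-05), or 1.72 beyond the change with 4-OHT in vector cells (SE 0.20, adjusted p = 0.00148), where the arrays read 4.49 and 4.66 without and 4.50 and 4.52 with 4-OHT. Constitutive Runx1 did not bring a like level: the Runx1 arrays read 4.14 and 4.38 and differed from vector by −0.32 (SE 0.14, adjusted p = 0.499), and the human RUNX1 array read 4.63. The 2 settings were not set against each other in a test. The Runx3 arrays read 5.14 and 4.66, with a difference of 0.32 from vector (adjusted p = 0.229) and 0.64 from the Runx1 line (adjusted p = 0.0163). That second difference missed the threshold without Runx1 replicate 1 (adjusted p = 0.153) and without Runx3 replicate 1 (adjusted p = 0.147). Smad7, the other inhibitory Smad, passed in no comparison and stayed between 5.27 and 5.88 on all arrays. Nor did the Smad ligases Smurf1, between 5.99 and 7.03, and Smurf2, between 7.47 and 8.02, pass in any.

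Tgfb1, the gene of the ligand TGF-β1, was highest in the Runx3 line. It read 6.91 and 7.15 log2 units there, 5.99 and 5.80 in vector cells, 6.19 and 6.27 in the Runx1 line and 6.07 and 6.12 in the Runx2 line. No array of another group reached the Runx3 arrays, the nearest being the human RUNX1 array at 6.40. The rise over vector was 2.20-fold (log2 1.14, SE 0.13, adjusted p = 8.76e-05), and the Runx3 line also exceeded the Runx1 line by 0.80 (adjusted p = 0.00221) and the Runx2 line by 0.94 (adjusted p = 0.00164). Tgfb1 had 2 probe sets, and these values are of the brighter. Over the alternative settings, among them the mean of both probe sets, these differences were as low as 0.57, 0.41 and 0.46. Leaving out single arrays brought them no lower than 1.02, 0.68 and 0.82. The dimmer probe set is not given alone here, so that the size of the rise is that of the brighter one. The choice of control mattered for the other lines: the vector arrays with 4-OHT read 5.07 and 5.51, a difference of −0.60 from those without it that did not pass (adjusted p = 0.432). Against vector without 4-OHT, Runx1 and Runx2 differed by 0.34 and 0.20 (adjusted p = 0.364 and 0.594), and against vector with 4-OHT by 0.94 and 0.81 (adjusted p = 0.00164 and 0.00386). Induced RUNX1-ER cells, at 5.96 and 5.93, exceeded vector cells with 4-OHT by 0.66 (adjusted p = 0.0137). Within the RUNX1-ER line the change was 0.29 (adjusted p = 0.415). The former call was lost without induced replicate 1 (adjusted p = 0.105), induced replicate 2 (0.0787) or replicate 1 of vector with 4-OHT (0.0773). Beyond 4-OHT the induction was 0.90 (adjusted p = 0.0547), and it passed without replicate 2 of vector with 4-OHT (1.12, adjusted p = 0.00964).

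Tgfb3, which encodes TGF-β3, passed in 2 comparisons between lines and in none against vector. The Runx1 arrays read 7.28 and 7.40, the Runx2 arrays 6.50 and 6.55, the Runx3 arrays 6.86 and 6.81 and the vector arrays 6.98 and 6.78. Runx2 lay below Runx1 by a log2 difference of −0.82 (SE 0.12, adjusted p = 0.00379, or 0.0550 without Runx1 replicate 2), and Runx3 below Runx1 by −0.51 (adjusted p = 0.0210). The latter missed the threshold without either Runx1 array (adjusted p = 0.0622 and 0.153) or either Runx3 array (0.0780 and 0.127). Against vector the lines differed by 0.46, −0.36 and −0.05, and none passed (adjusted p = 0.0866, 0.188 and 0.905). On induction Tgfb3 fell by 0.53 log2 units (adjusted p = 0.0442), from 6.93 and 7.26 to 6.61 and 6.53, and the call was lost without uninduced replicate 2 (adjusted p = 0.385), induced replicate 1 (0.162) or induced replicate 2 (0.281). Of the 9 ligands measured 6 were dim (Tgfb2, Bmp2, Bmp4, Bmp6, Bmp7 and Inhbb), and Inhba, which encodes an activin subunit, stayed between 6.25 and 6.73.

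Among the receptors, Tgfbr2 and Tgfbr3 moved in opposite directions. Tgfbr2 encodes the type II receptor that binds TGF-β. Its arrays read 8.52 and 8.46 in vector cells, 9.58 and 9.73 in the Runx1 line, 8.94 and 9.12 in the Runx2 line and 9.41 and 9.46 in the Runx3 line. All 6 arrays of the lines lay above all 4 vector arrays, the highest of which was 8.52. Against vector the rises were 2.24-fold, 1.45-fold and 1.92-fold (log2 differences 1.16, 0.54 and 0.94, each with SE 0.10; adjusted p = 5.57e-05, 0.0130 and 6.12e-05). The call in the Runx2 line was lost without vector replicate 1 (adjusted p = 0.0816), vector replicate 2 (0.120) or Runx2 replicate 2 (0.0864). Runx2 lay below Runx1 by −0.62 (adjusted p = 0.00908), which missed the threshold without Runx1 replicate 2 (adjusted p = 0.111) or Runx2 replicate 1 (0.0932). Runx3 and Runx1 differed by −0.22 (SE 0.10, adjusted p = 0.293), and Runx3 and Runx2 by 0.40 (adjusted p = 0.0521).

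In the RUNX1-ER line Tgfbr2 read 8.60 and 8.84 uninduced and 8.94 and 8.82 induced, groups that overlapped, and induction changed it by 0.16 (adjusted p = 0.626). Induced cells exceeded vector cells with 4-OHT, at 8.35 and 8.42, by 0.50 (adjusted p = 0.0172), which missed the threshold without any 1 of the 4 arrays (adjusted p from 0.0604 to 0.154). The human RUNX1 array had the highest Tgfbr2 value of the series, 9.92, 1.43 log2 units above the vector mean. A second, dimmer probe set of Tgfbr2 changed by 1.00, 0.38 and 0.70 in the Runx1, Runx2 and Runx3 lines and passed in the Runx1 line, and the third, with a mean of 2.90, changed by 0.09 or less in size in each.

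Tgfbr3 encodes betaglycan, a co-receptor that presents TGF-β to the type II receptor. Its arrays read 9.74 and 9.74 in vector cells, 9.30 and 9.45 in the Runx1 line, 9.26 and 9.34 in the Runx2 line and 8.53 and 8.69 in the Runx3 line. The Runx3 arrays were the lowest of the series, and the next was the human RUNX1 array at 9.15. In the Runx3 line it fell by 1.13 log2 units (SE 0.09, adjusted p = 4.68e-06), and it was also below the Runx1 line by −0.77 (adjusted p = 0.000236) and the Runx2 line by −0.69 (adjusted p = 0.00109). Its other probe set changed by −1.02 in the Runx3 line and passed. In the Runx2 line the difference from vector was −0.44 (adjusted p = 0.0232), lost without vector replicate 1 (adjusted p = 0.159), vector replicate 2 (0.140), Runx2 replicate 1 (0.164) or Runx2 replicate 2 (0.0516). In the Runx1 line it was −0.37 (adjusted p = 0.0815), and with vector with 4-OHT as the control −0.39, which passed (adjusted p = 0.0433). In induced RUNX1-ER cells, at 9.37 and 9.36, it was −0.40 against vector cells with 4-OHT (adjusted p = 0.0316, and from 0.0600 to 0.157 without any 1 of the 4 arrays).

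Tgfbr1, the type I receptor that pairs with Tgfbr2, passed once. Induced RUNX1-ER cells read 6.68 and 6.50 and vector cells with 4-OHT 5.67 and 5.87, a difference of 0.82 (SE 0.17, adjusted p = 0.0180). Tgfbr1 had 3 probe sets, and over the alternative settings, among them their mean, the difference was as low as 0.40. It was lost without any 1 of the 4 arrays (adjusted p from 0.0514 to 0.153), and the uninduced arrays were already at 6.29 and 6.11, with a change on induction of 0.40 (adjusted p = 0.402). In the 3 mouse lines it differed from vector by 0.05 to 0.23 and did not pass. None of the BMP and activin receptors on the list passed in any of the 11 comparisons. Acvr1, an activin and BMP type I receptor, came closest, at 7.43 and 7.36 in the Runx3 line against 6.94 and 6.95 in vector cells (0.45, adjusted p = 0.0697). With vector with 4-OHT as the control instead (6.97 and 6.67), Acvr1 in the Runx3 line passed at 0.57 (adjusted p = 0.0175), as did the type I receptor Bmpr1a at 0.34 (adjusted p = 0.0329). The type II receptor Bmpr2 stayed between 7.96 and 8.30 and Bmpr1a between 7.51 and 8.02. The activin receptors Acvr1b and Acvr2a stayed between 7.46 and 7.69 and between 6.11 and 6.56. The co-receptor endoglin (Eng) stayed between 5.83 and 6.17, while Acvr2b, Acvrl1 and Bmpr1b were dim.

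Of the Smads that carry the signal, only Smad3 passed in any of the 11 comparisons. It transmits TGF-β and activin signals. It read 7.42 and 7.42 in vector cells, 7.13 and 7.17 in the Runx1 line, 7.64 and 7.83 in the Runx2 line and 7.23 and 7.24 in the Runx3 line. No line differed from vector past the threshold (−0.27, 0.32 and −0.19; adjusted p = 0.325, 0.146 and 0.356). Runx2 exceeded Runx1 by 0.59 (SE 0.10, adjusted p = 0.00978) and Runx3 lay below Runx2 by −0.51 (adjusted p = 0.0142). The former was lost without Runx1 replicate 1 (adjusted p = 0.0864), Runx1 replicate 2 (0.0720) or Runx2 replicate 2 (0.0615), and the latter without Runx2 replicate 2 (0.0917), Runx3 replicate 1 (0.0724) or Runx3 replicate 2 (0.0840). Induced RUNX1-ER cells, at 8.017 and 7.995, were the highest of all groups and exceeded vector cells with 4-OHT, at 7.53 and 7.28, by 0.60 (adjusted p = 0.00441). Within the line the induction was 0.39 (adjusted p = 0.0763). Smad3 had 2 other probe sets, with means of 4.46 and 4.60, which passed in none of these comparisons.

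Smad2, the other TGF-β Smad, stayed between 7.12 and 7.62 on all arrays and Smad4, the common partner, between 8.50 and 8.92. Smad1, a BMP Smad, read 7.90 and 7.84 in vector cells and was lower by −0.26, −0.32 and −0.36 in the Runx1, Runx2 and Runx3 lines without passing (adjusted p = 0.599, 0.353 and 0.137). Smad5 stayed between 5.61 and 6.13.

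The corepressors moved in different groups. Tgif1, which encodes a homeodomain corepressor of Smad2 and Smad3, read 7.77 and 7.75 in the Runx3 line against 8.32 and 8.25 in vector cells. The Runx3 arrays were the lowest of the series, and the change of −0.52 passed (SE 0.12, adjusted p = 0.0161), as did −0.46 against the Runx1 line (adjusted p = 0.0435). Both calls were lost without any 1 of their 4 arrays (adjusted p from 0.0688 to 0.117 and from 0.0872 to 0.252). Skil, which encodes the Smad corepressor SnoN, read 7.78 and 7.71 in induced RUNX1-ER cells and 8.70 and 8.29 in vector cells with 4-OHT. That difference of −0.75 passed (SE 0.15, adjusted p = 0.0119). Skil had 2 probe sets, and these values are of the brighter. Over the alternative settings, among them the mean of both probe sets, the difference was as small as −0.41. It missed the threshold without induced replicate 1 (adjusted p = 0.0672), induced replicate 2 (0.0953) or replicate 1 of vector with 4-OHT (0.0774). The uninduced arrays, at 8.16 and 8.05, lay between them, and induction within the line changed Skil by −0.36 (adjusted p = 0.358).

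Secreted antagonists were mostly dim. Fstl1, a follistatin-related glycoprotein, read 9.35 and 9.35 in the Runx3 line against 9.07 and 8.89 in vector cells. It rose by 0.37 (SE 0.09, adjusted p = 0.0248), and its other probe set by 0.42, but the call was lost when vector replicate 2 was left out (adjusted p = 0.229), or Runx3 replicate 1 (0.102) or Runx3 replicate 2 (0.112). Nog, the BMP antagonist noggin, differed by 0.38 between Runx3 (3.51 and 3.43) and Runx2 (3.02 and 3.15), all dim values (adjusted p = 0.0491), and the call was lost without Runx2 replicate 1 (adjusted p = 0.264), Runx2 replicate 2 (0.0728), Runx3 replicate 1 (0.222) or Runx3 replicate 2 (0.140). Of 7 members of this kind 5 were dim (Grem1, Nog, Chrd, Fst and the pseudoreceptor Bambi), and Fstl3 stayed between 6.63 and 7.01. In the group of matrix storage, Ltbp1, which tethers latent TGF-β to the matrix, read 6.87 and 7.29 in the Runx2 line against 7.79 and 7.48 in vector cells, and the difference of −0.55 did not pass (adjusted p = 0.123). Ltbp2 and Tgfbi, a matrix protein induced by TGF-β, were dim, and the procollagen proteinase Bmp1 stayed between 6.11 and 6.71. Over the 11 comparisons, the 32 members that passed nowhere changed by −0.55 to 0.54 log2 units.

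**Figure D2:**
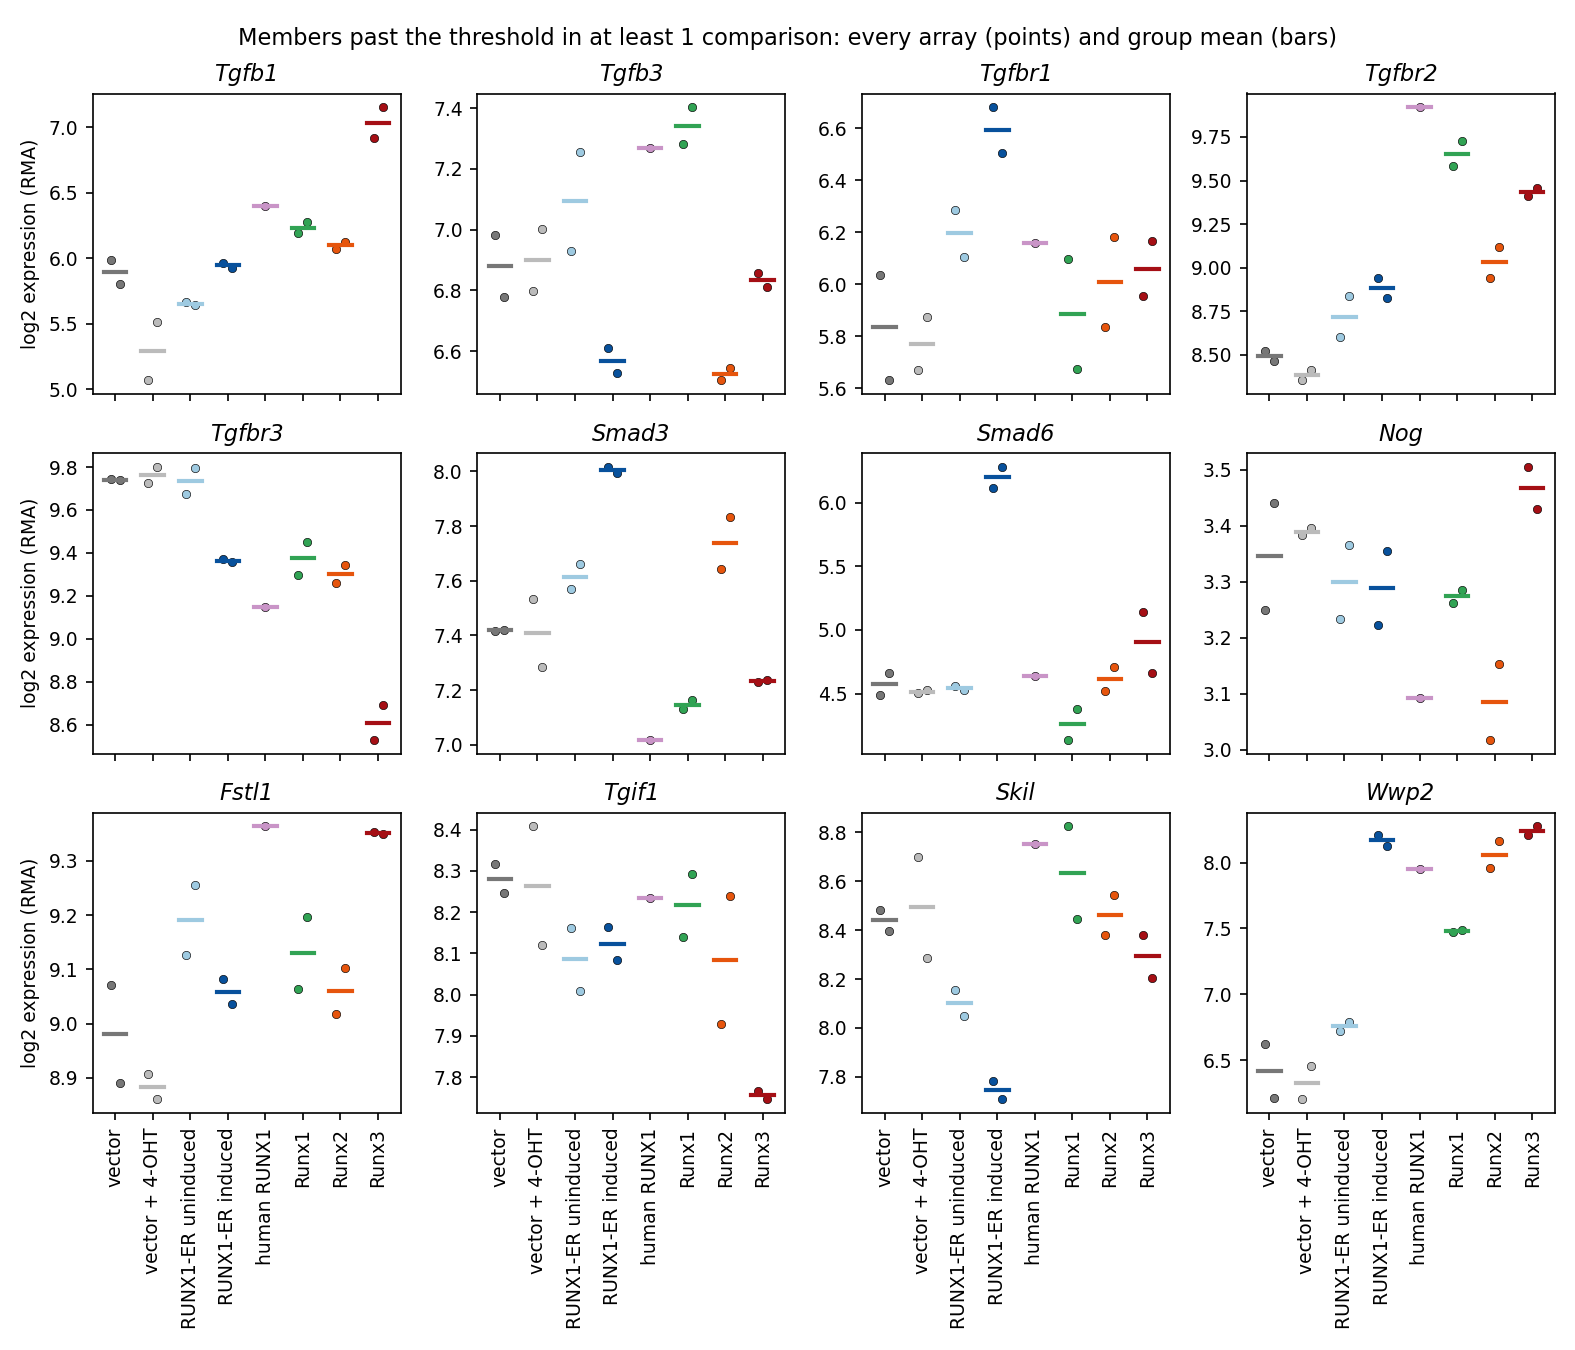
Every array of the 12 members that passed in at least 1 comparison, as points with the group mean as a bar, on the log2 RMA scale (vertical, each panel on its own range) for the 8 groups (horizontal). Wwp2 separates the constitutive lines and induced RUNX1-ER cells from vector. Smad6 stands apart in induced RUNX1-ER cells at 6.12 and 6.28, and Tgfb1 and Tgfbr3 stand apart in the Runx3 line.

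Counted together, few members passed the threshold in any 1 comparison, which does not show that the others were unchanged. In the Runx1 line 2 of 44 passed (4.55%), both higher (Wwp2 and Tgfbr2), where 1.7% of all genes passed, 0.973% higher and 0.726% lower. In the Runx2 line 3 passed (6.82%, against 2.57% of all genes, 0.923% higher and 1.65% lower), Wwp2 and Tgfbr2 higher and Tgfbr3 lower, and 1 passed without vector replicate 1 or without vector replicate 2. In the Runx3 line 6 passed (13.6%, against 9.37% of all genes, 3.97% higher and 5.4% lower): Wwp2, Tgfb1, Tgfbr2 and Fstl1 were higher and Tgfbr3 and Tgif1 lower. The median log2 difference of the members was 0.01, 0.00 and 0.02 in these lines, and that of all genes −0.01, −0.01 and 0.00. These 3 comparisons share the vector arrays.

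Line against line, without vector arrays, 4 members differed between Runx2 and Runx1 (9.09%, with 1.5% of all genes), 6 between Runx3 and Runx1 (13.6%, with 6.52%) and 4 between Runx3 and Runx2 (9.09%, with 3.76%). Leaving out 1 array moved the first count to between 0 (without Runx1 replicate 2) and 3, with 2 without Runx1 replicate 1 or Runx2 replicate 1. The second fell to 3 without Runx1 replicate 1 or Runx3 replicate 1, and the third to 2 without either Runx3 array. For induction of RUNX1-ER the count was 3 (6.82%, with 1.92% of all genes), and for induction beyond 4-OHT it was 2, Smad6 and Wwp2 (4.55%, with 0.605%). Induced RUNX1-ER against vector with 4-OHT gave 8 (18.2%, with 4.16% of all genes, 2.9% higher and 1.26% lower), 6 higher (Smad6, Wwp2, Tgfbr1, Tgfb1, Smad3 and Tgfbr2) and 2 lower (Skil and Tgfbr3). That count was 3 without either induced array or replicate 1 of vector with 4-OHT, and 5 without its replicate 2. In limma no member passed for 4-OHT in vector cells (0% of all genes passed, and 2 members had an unadjusted p under 0.05), and none for uninduced RUNX1-ER against vector (0.044% of all genes, with 6 members at an unadjusted p under 0.05). On the single human RUNX1 array 2 members, Wwp2 and Tgfbr2, were at least 2-fold from the vector mean, both higher, with 1.1% of all genes that far in either direction, and this array has no replicate check.

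**Figure D3:**
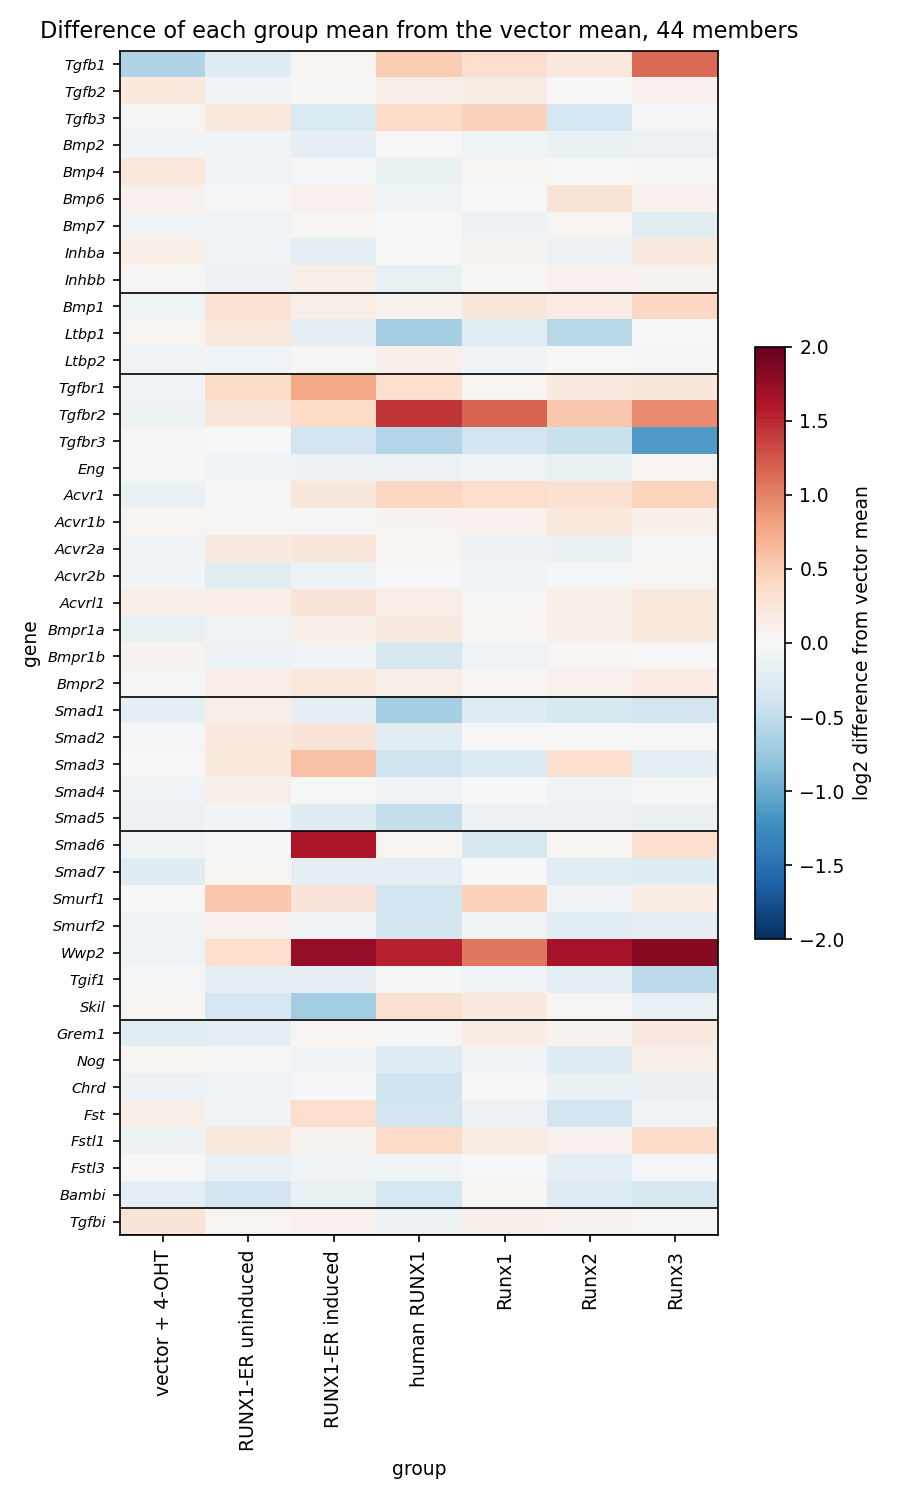
Colour shows the difference of each group mean from the vector mean (log2, red higher, blue lower) for 44 members (rows, ordered by role from ligands to antagonists and Tgfbi, with lines between roles) in 7 groups (columns). Wwp2 is red in the 3 mouse lines, in the human RUNX1 line and in induced RUNX1-ER cells, with up to 1.83 in the Runx3 line. Smad6 is red in induced RUNX1-ER cells, Tgfbr3 is blue in the Runx3 line, and most other rows are pale.

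Other genes of the pathway were read from lists chosen for their place in it, on which Junb and Pmepa1 stand 2 times. The lists were drawn up with earlier results of these data known, so their shares describe and do not test. Of 23 measured genes known to respond to TGF-β, 12 rose and 3 fell in the Runx3 line (65.2%, where 9.37% of all genes passed, 3.97% higher and 5.4% lower), with a median log2 difference of 0.46 (0.00 over all genes). In the same line 1 of 5 epithelial and 5 of 10 fibroblast markers passed (Col1a1, Col1a2, Fn1 and Lox are on both lists), and their part in the count was not tested. The share of all genes includes dim ones, and the list of responsive genes was not matched to it for brightness. Snai1, a transcription factor of mesenchymal cells, rose by 2.43, Col5a1, a fibrillar collagen chain, by 2.28, Junb, an AP-1 subunit, by 1.61 and Pmepa1, which restrains TGF-β signals, by 1.30 (adjusted p = 4.54e-06, 7.41e-08, 9.13e-05 and 4.83e-05). Timp3, a metalloproteinase inhibitor, Snai2 and Sphk1 fell by 1.00, 0.64 and 0.53 log2 units. The other 8 did not pass.

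In the Runx1 line 5 of the 23 rose and 1 fell (26.1%, with 1.7% of all genes, median 0.15), led by Ccn2, a matricellular growth factor, at 1.07, and Snai2 at 0.80. In the Runx2 line 2 rose, Snai1 by 1.16 and Col5a1 by 0.90, and Timp3 fell (13%, with 2.57% of all genes, median 0.18). Induced RUNX1-ER cells against vector with 4-OHT had 7 higher and none lower (30.4%, with 4.16% of all genes, median 0.26), led by Snai1 at 2.47, Junb at 1.40 and Col5a1 at 1.36. Tested directly, Snai2 lay below the Runx1 line by −1.44 in the Runx3 line and by −0.95 with Runx2 (adjusted p = 3.25e-05 and 0.00346). In limma none of the 23 passed for 4-OHT in vector cells, and none had an unadjusted p under 0.05.

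**Figure D4:**
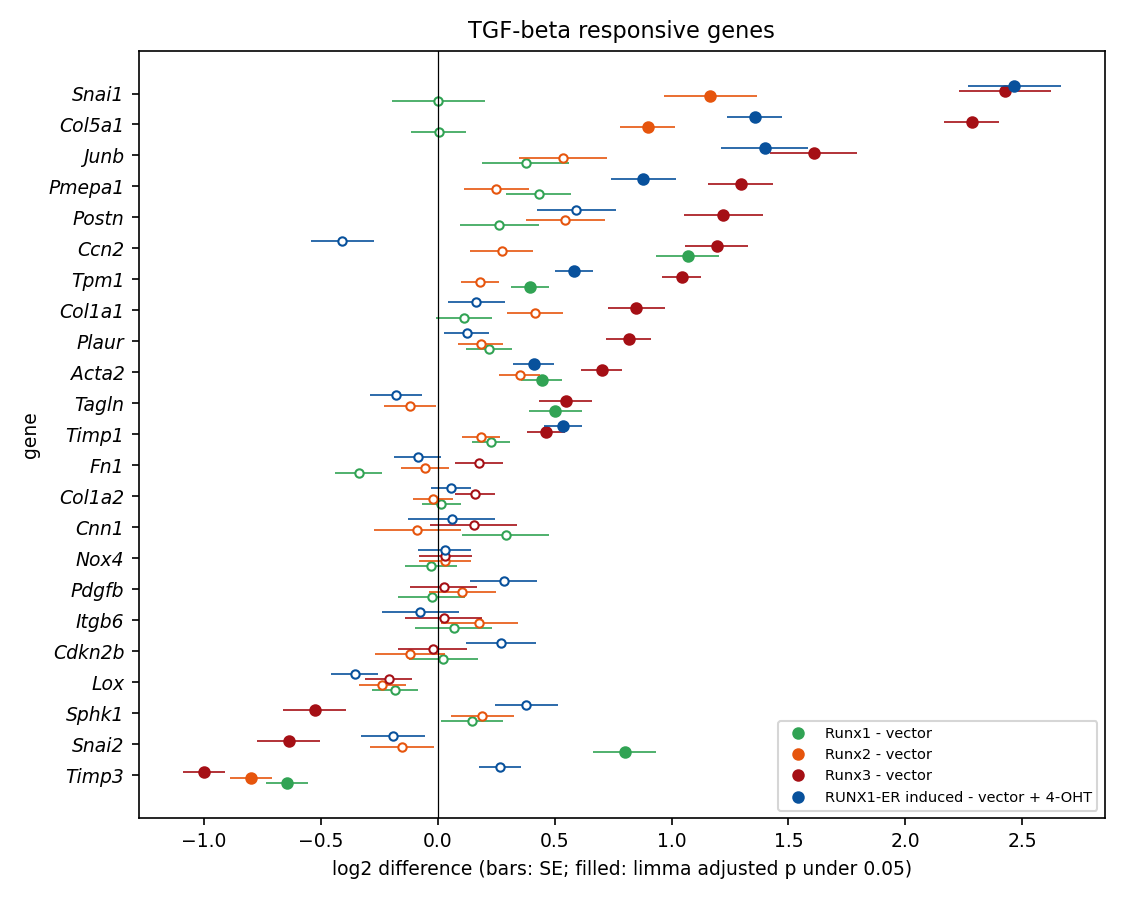
Log2 differences (horizontal, bars are the SE) of 23 TGF-β responsive genes (vertical, ordered by the Runx3 line) in 4 comparisons by colour, with filled points past an adjusted p of 0.05. In the Runx3 line 15 points are filled, 12 to the right of 0 and 3 to the left, against 6 in the Runx1 line and 3 in the Runx2 line.

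Of 16 genes known to respond to BMP, 3 fell and none rose in each of the Runx1 and Runx2 lines (18.8% in each, with 1.7% and 2.57% of all genes), and in limma 5 and 6 of the 16 had an unadjusted p under 0.05. The 3 were Id1, Id2 and Id3, which encode partners that keep basic helix-loop-helix factors off DNA, with Id2 at −1.68 and −2.24, Id3 at −1.22 and −1.50 and Id1 at −1.02 and −0.79 in the 2 lines. In the Runx3 line 2 rose, Junb and the phosphatase gene Alpl (0.50), and 3 fell, Id2, Id3 and Id4 (31.2%, with 9.37% of all genes). Id1 differed from its level in the Runx1 line by 1.39 in the Runx3 line (adjusted p = 1.60e-05), and induction of RUNX1-ER raised it by 0.89 (adjusted p = 0.00171), while uninduced cells lay below vector by −1.18 (adjusted p = 0.00271). On induction 2 of the 16 rose and 2 fell (25%, with 1.92% of all genes). Over the 16 the differences on induction ran from −0.87 to 2.01 log2 units. Beyond the change with 4-OHT in vector cells, 2 were higher and 0 lower (12.5%, with 0.605% of all genes).

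Of 43 other measured components, 3 rose and 6 fell in the Runx3 line (20.9%, with 9.37% of all genes, 3.97% higher and 5.4% lower): Pmepa1, the BMP modulator Bmper (1.14) and the corepressor Tgif2 (0.64) were higher, and the TGF-β co-receptor Cd109 (−1.04), the matrix proteoglycan decorin (Dcn, −1.02), Crim1, Thbs1, Ltbp3 and Rgma were lower. In the Runx1 line only Dcn passed among the 43 (−0.84; 2.33%, with 1.7% of all genes), and in the Runx2 line Dcn (−0.91) and Bmper (0.77; 4.65%, with 2.57%). Induction of RUNX1-ER changed none of the 43 past the threshold in limma, and 7 had an unadjusted p under 0.05.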

How the data were processed

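Total RNA of 15 cultures was hybridised to Affymetrix arrays. Judged by their range, the values the authors deposited are log2 units. Per the labels' protocols the authors scanned with GCOS and applied RMA (Robust Multichip Average, Bioconductor affy) through FunAlyse, and tool versions are not given in these sources. RMA brings all arrays to 1 distribution, which hides any shift in total RNA and understates changes of dim probe sets. Precision is limited by the number of arrays.

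Of 45101 probe sets, 34958 had 1 gene symbol, 932 several and 9211 none, and the 64 control probe sets were left out. Entrez identifiers matched 34741 of these to RefSeq (GRCm38.p6), which changed 0 symbols. The test was lmFit and eBayes of limma 3.58.1 in R 4.3.3, two-sided, with 1 coefficient per group over all 15 arrays (7 residual and 5.65 prior degrees of freedom) and Benjamini-Hochberg adjustment over 18193 genes within each of 11 comparisons. Samples were grouped by their titles. The fit was tested on simulated data (Runx3 against vector, 18193 genes). It found 34 of 67 genes with a log2 change of 0.5, 60 of 67 with 1 and 66 of 66 with 2, beside 8 false calls among 17993 genes.

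Every member is accounted for. Members past the threshold are given by array, Tgfb1, Tgfbr1, Smad1, Smad2, Smad3 and Smad4 are named for their place in the pathway whether or not they passed, and from each list up to 4 genes with the largest change are named. Further genes were named after their values were seen. Members and lists were chosen with earlier results of these data known. Alternatives were another probe set rule, a brightness filter, quantile normalization, fits of the compared groups alone, a mean-dependent prior, a replicate block, other control arrays and leaving out each array.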

Additional observations from a re-analysis of the deposited data

Results flagged for a closer look

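Differences between groups were tested directly, and those that passed in limma were these log2 differences. Between the Runx2 and Runx1 lines they were −0.82 for Tgfb3, −0.62 for Tgfbr2, 0.59 for Smad3 and 0.58 for Wwp2. Between the Runx3 and Runx1 lines they were 0.80 for Tgfb1, −0.51 for Tgfb3, −0.77 for Tgfbr3, 0.64 for Smad6, −0.46 for Tgif1 and 0.76 for Wwp2. Between the Runx3 and Runx2 lines they were 0.94 for Tgfb1, −0.69 for Tgfbr3, −0.51 for Smad3 and 0.38 for Nog. The change with 4-OHT in the RUNX1-ER line exceeded that in vector cells by 1.72 for Smad6 and by 1.50 for Wwp2. With 2 arrays a group, single outlying arrays were not tested.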

How the results depend on the processing

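Of 38 calls of members over the 11 comparisons, 16 held under every alternative run for them: Tgfb1 between Runx3 and vector, Runx1 and Runx2; Tgfbr2 in the Runx1 and Runx3 lines and Tgfbr3 in the Runx3 line against vector; Tgfbr3 and Wwp2 between Runx3 and Runx1; Wwp2 in the Runx2 and Runx3 lines against vector; and Smad6 and Wwp2 in the 3 comparisons of induction. The other 22 were lost under at least 1, and 0 reversed. Smad6 has 1 probe set and a mean of 4.79, so that the other probe set rule used its same values. The brightness filter left it out, and these 2 alternatives were no check of its calls. Calls that held could still shrink, as for Tgfb1 between Runx3 and vector, from 1.14 to 0.57. The main counts were 2 for Runx1, 3 for Runx2 and 6 for Runx3 against vector, 4, 6 and 4 between lines (Runx2 and Runx1, Runx3 and Runx1, Runx3 and Runx2), 3 for induction, 2 for induction beyond 4-OHT and 8 for induced cells against vector with 4-OHT. With the mean of all probe sets of a gene, which averages in dim ones, 1 member passed for Runx1 and 1 for Runx2 against vector, 2 for Runx2 against Runx1 and 4 for induced cells against vector with 4-OHT. With only genes above a mean of 5, 4 passed for Runx1 against vector. Fitting only the groups compared left 1 for Runx2 against vector, 0 for Runx2 against Runx1, 1 for Runx3 against Runx2 and 2 for induced cells against vector with 4-OHT, with fewer arrays behind the spread. A mean-dependent prior gave 4 for Runx1 against vector, 7 for Runx3 against Runx2, 5 for induction and 4 for induction beyond 4-OHT. With the 4-OHT vector arrays as control, 4 passed for Runx1, 4 for Runx2 and 8 for Runx3. The cause of the changes under the prior and the control was not tested. Leaving out 1 array at a time gave 2 to 2 for Runx1, 1 to 2 for Runx2 and 4 to 5 for Runx3 against vector, 0 to 3, 3 to 4 and 2 to 3 between lines in the order above, 2 to 3 for induction, 2 to 3 beyond 4-OHT, and 3 to 5 for induced cells against vector with 4-OHT; a lone array is then assumed to vary like the other groups. Deviations of samples of equal replicate number correlated at −0.12 to 0.08 over all genes. That check cannot exclude a batch shared by some genes or groups, and the labels do not name one. With the replicate block the counts were 2, 3 and 7 for Runx1, Runx2 and Runx3 against vector, 3, 6 and 4 between lines, 2 for induction, 2 beyond 4-OHT and 8 for induced cells against vector with 4-OHT. Dim probe sets limit what the 16 dim members can show.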
